A study of Homo sapiens with 27 samples.

Results

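A set of 10 genes of late squamous differentiation was followed across ligand treatments of MCF10A, an immortalised, non-tumorigenic line of human breast epithelium: IVL, CDSN, CNFN, SBSN, KRTDAP, CALML5, A2ML1, TGM1, TGM3 and CRCT1. They were chosen by name, with earlier results of these data known. All 10 were found among the 36536 genes of the table (symbols, or identifiers where a row had no symbol). Cells grown with 20 ng/ml epidermal growth factor (EGF) were kept for 18 h without growth factors and then received 10 ng/ml of EGF, oncostatin M (OSM), an interleukin-6-type cytokine, or transforming growth factor beta (TGFB). Each ligand was given alone, in each pair and with both others, and RNA was collected 24 h later. PBS was the vehicle control, and a group called T0 was collected at 0 h, after the 18 h without growth factors. The PBS cells were therefore without EGF, OSM and TGFB for 24 h longer than the T0 cells. Each of the 9 groups had 3 libraries of polyadenylated RNA, 27 in all. The labels do not say whether replicates were separate cultures, so p-values measure only the spread between these libraries, which may be technical.

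In stratified squamous epithelia, cells that leave the basal layer build the cornified envelope, a protein shell cross-linked beneath the plasma membrane. Transglutaminases join scaffold proteins such as involucrin, while desmosomes are remodelled and secreted proteins and protease inhibitors regulate shedding. MCF10A cells are mammary but have many features of basal epithelium, and they can express squamous genes in culture.

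The stretches upstream of 4 members are shown as examples. TGFB raised IVL, and the ligands did not raise KRTDAP and SBSN in any comparison with PBS. CALML5, also raised by TGFB, had the largest fall with OSM among the tested members. These 4 include all 3 windows with the AP-1 motif described below. The sequences are from RefSeq on GRCh38.p14, which held 8 of the 10 members (all but TGM1 and CRCT1), and motifs were searched in the 250 bases before RefSeq's start, 5′ to 3′ on the gene's strand. The gene spans given below are GENCODE's over all transcripts, and longer transcripts of KRTDAP and SBSN begin upstream of RefSeq's start. The bases nearest the start that exons of those transcripts cover are not printed, 67 for KRTDAP and 40 for SBSN. The printed stretches lie at chr1:152908296-152908545 (IVL, plus), chr19:35490532-35490714 (KRTDAP, minus), chr19:35528352-35528561 (SBSN, minus) and chr10:5499571-5499820 (CALML5, minus). Capitals mark the AP-1 motif TGANTCA on either strand and the TATA motif TATAAA on the gene's strand.
IVL: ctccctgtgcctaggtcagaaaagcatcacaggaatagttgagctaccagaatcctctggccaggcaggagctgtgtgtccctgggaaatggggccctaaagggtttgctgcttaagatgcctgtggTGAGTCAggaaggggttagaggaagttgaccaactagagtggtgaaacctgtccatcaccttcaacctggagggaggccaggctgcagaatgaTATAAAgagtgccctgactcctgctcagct
KRTDAP: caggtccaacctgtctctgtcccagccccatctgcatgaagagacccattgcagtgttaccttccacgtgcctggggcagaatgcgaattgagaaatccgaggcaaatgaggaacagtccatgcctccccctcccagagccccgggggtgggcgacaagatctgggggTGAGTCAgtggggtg
SBSN: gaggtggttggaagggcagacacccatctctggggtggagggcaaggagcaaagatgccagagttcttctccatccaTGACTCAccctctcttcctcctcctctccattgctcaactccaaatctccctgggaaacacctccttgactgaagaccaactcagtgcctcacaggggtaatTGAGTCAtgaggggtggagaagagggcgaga
CALML5: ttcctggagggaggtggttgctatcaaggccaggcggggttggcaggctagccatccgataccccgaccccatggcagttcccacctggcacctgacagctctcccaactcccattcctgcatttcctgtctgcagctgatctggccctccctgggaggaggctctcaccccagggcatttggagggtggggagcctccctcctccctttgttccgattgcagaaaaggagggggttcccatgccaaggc
The AP-1 motif was in 3 of the 8 windows (IVL, KRTDAP and SBSN) and in 6.59% of all 34788 windows of that length. The TATA motif was in 4 of the 8 (IVL, KRTDAP, A2ML1 and TGM3) and in 6.84% of all windows; that of KRTDAP lies in the bases not printed. CALML5 had neither. The STAT motif TTCNNNGAA was in 0 of 8 and 6.57% of all windows, the GRHL motif AACCNGTT in 0 of 8 and 1.49%, the KLF motif CACCC in 7 of 8 and 54.7%, and the SMAD motif GTCTG in 4 of 8 and 38.0%, each on both strands. These matches describe the letters of the windows only.

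Library totals ran from 30.1 M (mega-counts) up to 52.9 M around a median of 39.5 M, and levels are given as counts per mega-count (CPM). Replicates were distinct libraries: their chi-square, divided by its degrees of freedom, was 6.84 to 33.9. The basal epithelial keratin KRT5 averaged from 3414 CPM with EGF+TGFB to 8883 CPM at T0, and the epithelial cadherin CDH1 from 179.7 CPM with EGF+OSM to 656 CPM with TGFB. Of 16 markers of other cell types, 7 passed the filter on low counts. The summed level of all 16 per library was 107 to 115 CPM at T0, 123 to 128 CPM in PBS, 33.5 to 39.2 CPM with EGF, 108 to 127 CPM with OSM and 122 to 129.6 CPM with TGFB. It was 42.0 to 43.1 CPM with EGF+OSM, 42.7 to 45.4 CPM with EGF+TGFB, 139.9 to 153 CPM with OSM+TGFB and 57.8 to 66.2 CPM in the triple combination. Most of that sum was DCN, a matrix proteoglycan (91.6 CPM in PBS, 11.3 CPM with EGF), and CD68, a lysosomal protein (27.2 CPM in PBS). The leukocyte marker PTPRC averaged at most 0.133 CPM in any group, and between 0 and 5 of the 16 markers were at 0 throughout a group. The part of these markers in the results below was not tested. In bulk RNA, fewer cells of a type and less RNA per cell cannot be told apart.

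TGM3, a transglutaminase of the later envelope (chromosome 20, 2296001 to 2341079, 13 exons), had 28 counts in all 27 libraries. It did not pass the filter and was not tested, so counts below are of 9 tested members. Its PBS libraries had 1, 4 and 6 counts, its TGFB libraries 0, 1 and 4, and all libraries of EGF+OSM, OSM+TGFB and the triple combination had 0. A count of 0 is compatible with up to 3 counts per library, for counting error only.

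In PBS, per kilobase of the canonical transcript, TGM1 was at 87.3 ± 14.8 CPM per kb (SD, n = 3 here and throughout), followed by SBSN at 80.0 ± 13.7 and A2ML1 at 79.3 ± 10.5. The libraries' spread did not separate these levels. CALML5 (52.5 ± 7.85) and IVL (51.9 ± 8.53) came next, then KRTDAP (32.1 ± 9.32), CNFN (15.6 ± 3.81), CRCT1 (12.8 ± 6.78), CDSN (6.90 ± 2.18) and TGM3 (0.0325 ± 0.0230). TGM1 had 2 rows that were identical in every library, which were summed. Its level may therefore be split or doubled, while its fold changes are unaffected. CDSN, which lies in the major histocompatibility region, had 6 rows, that of the chromosome 6 gene and others for copies on alternate sequences. Of these 6 rows, 4 had counts in any library, and all were summed.

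The 24 h in PBS raised most of the set. IVL, the gene of involucrin, an early scaffold of the envelope (chromosome 1, 152908546 to 152911886, 2 exons), had 57.2, 60.4 and 49.4 CPM in the T0 libraries and 91.5, 116 and 127 CPM in the PBS libraries. The groups did not overlap, and IVL was 2.01-fold higher in PBS (log2 fold change 1.00 ± 0.14, SE; adjusted p = 9.9e-06; all adjusted p-values are Benjamini-Hochberg values from edgeR's quasi-likelihood test). CDSN, the gene of the desmosomal protein corneodesmosin (chromosome 6, 31115087 to 31120446, 2 exons), rose the most, by 2.11 ± 0.41 on the log2 scale. In all, 8 of 9 tested members were higher in PBS, where 16.2% of the 15575 tested genes were. The median of the members was 1.00 on the log2 scale and that of all genes -0.01. TGM1, the gene of the membrane-bound transglutaminase of keratinocytes (chromosome 14, 24249114 to 24264432, 15 exons), was not called, at 0.39 ± 0.25 (adjusted p = 0.24). Its T0 libraries at 144, 176.5 and 228 CPM overlapped those of PBS at 197, 244 and 278 CPM.

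OSM lowered all 9 tested members against PBS, where 29.8% of all genes were lower and 33.5% higher. The members' median was -4.43 on the log2 scale, against 0.00 for all genes. CALML5, the gene of a calmodulin-like protein of differentiating epidermis (chromosome 10, 5498697 to 5499570, 1 exon), had 40.0, 44.1 and 53.4 CPM in PBS and 0.569, 0.399 and 0.216 CPM with OSM, the last group from 20, 18 and 8 counts. It fell 116-fold, a log2 fold change of -6.86 ± 0.25 (adjusted p = 2.2e-16). IVL had 4.01, 4.504 and 3.83 CPM with OSM, which was 27-fold lower (-4.76 ± 0.18; adjusted p = 2.2e-15). The libraries of PBS and OSM were far apart for both genes. CRCT1, a cysteine-rich gene of the epidermal differentiation complex (chromosome 1, 152514482 to 152516008, 2 exons), fell by 4.77 on the log2 scale. KRTDAP, the gene of a secreted protein of differentiating keratinocytes (chromosome 19, 35487324 to 35495558, 6 exons), fell by 4.52 and CDSN fell by 4.43. A2ML1, a protease inhibitor of the alpha-2-macroglobulin family (chromosome 12, 8822621 to 8887001, 36 exons), fell by 3.09, SBSN, the gene of the secreted protein suprabasin (chromosome 19, 35523367 to 35528351, 4 exons), by 3.01, and CNFN, the gene of the envelope protein cornifelin (chromosome 19, 42387019 to 42390297, 4 exons), by 2.23.

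The transglutaminase gene had the smallest fall with OSM. TGM1 was at 130.4, 163 and 156 CPM with OSM, below the 197 to 278 CPM of PBS with no overlap. The difference was 1.6-fold (-0.68 ± 0.25; adjusted p = 0.023). This call was lost without PBS replicate 3 (adjusted p = 0.091) or without OSM replicate 1 (adjusted p = 0.083).

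EGF lowered 8 of 9 tested members against PBS, where 38.6% of all genes were lower and 34.9% higher. The members' median was -1.59 and that of all genes -0.07. CALML5 libraries with EGF had 6.23, 6.03 and 4.61 CPM, all below PBS, and the gene fell 8.13-fold (-3.02 ± 0.17; adjusted p = 3.1e-13). TGM1 had 50.0, 63.9 and 60.4 CPM, which was 4.12-fold lower (-2.04 ± 0.26; adjusted p = 6.0e-07) and again apart from PBS. IVL had 51.3, 74.0 and 66.2 CPM and fell 1.75-fold (-0.81 ± 0.14; adjusted p = 2.5e-05). The other called members fell by 1.07 (SBSN) to 1.86 (CNFN) on the log2 scale. CDSN differed by -0.81 ± 0.38 and was not called (adjusted p = 0.064), but it was with upper-quartile scaling (adjusted p = 0.043), with the replicate block (adjusted p = 0.010), without PBS replicate 1 (adjusted p = 0.043) or without EGF replicate 3 (adjusted p = 0.022). CRCT1 fell by 1.36 (adjusted p = 0.0050) and lost its call without PBS replicate 3 (adjusted p = 0.065) or in a fit of these groups alone (adjusted p = 0.083).

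Tested directly, OSM and EGF differed in 8 of 9 members, with 56.8% of all genes called. TGM1 was 2.57-fold higher with OSM than with EGF (1.36 ± 0.26; adjusted p = 0.00013), and 7 members were lower with OSM. Of these, IVL was 15.4-fold lower (-3.95 ± 0.18) and CALML5 14.3-fold lower (-3.83 ± 0.29). CNFN was not called, at -0.37 ± 0.26 (adjusted p = 0.24).

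TGFB alone raised 2 of the 9 tested members and lowered 1 against PBS, where 19.9% of all genes were higher and 15.8% lower. The members' median was 0.05 and that of all genes -0.01. IVL had 260.1, 274 and 307 CPM with TGFB, above every PBS library, and was 2.51-fold higher (1.33 ± 0.14; adjusted p = 1.3e-07). CALML5 had 77.8, 69.4 and 79.2 CPM, also above every PBS library, and was 1.64-fold higher (0.72 ± 0.15; adjusted p = 0.00055). TGM1 moved the other way: its libraries had 42.9, 64.1 and 84.8 CPM, all below PBS, and it was 3.75-fold lower (-1.91 ± 0.26; adjusted p = 6.8e-06). The scaffold gene and the cross-linking enzyme gene thus had opposite signs in the same libraries. The other members differed by -0.34 (SBSN) to 0.17 (CDSN) and were not called. Without TGFB replicate 3, SBSN (-0.55; adjusted p = 0.012) and KRTDAP (-0.79; adjusted p = 0.020) were called lower, for 5 calls in place of 3.

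**Figure D1:**
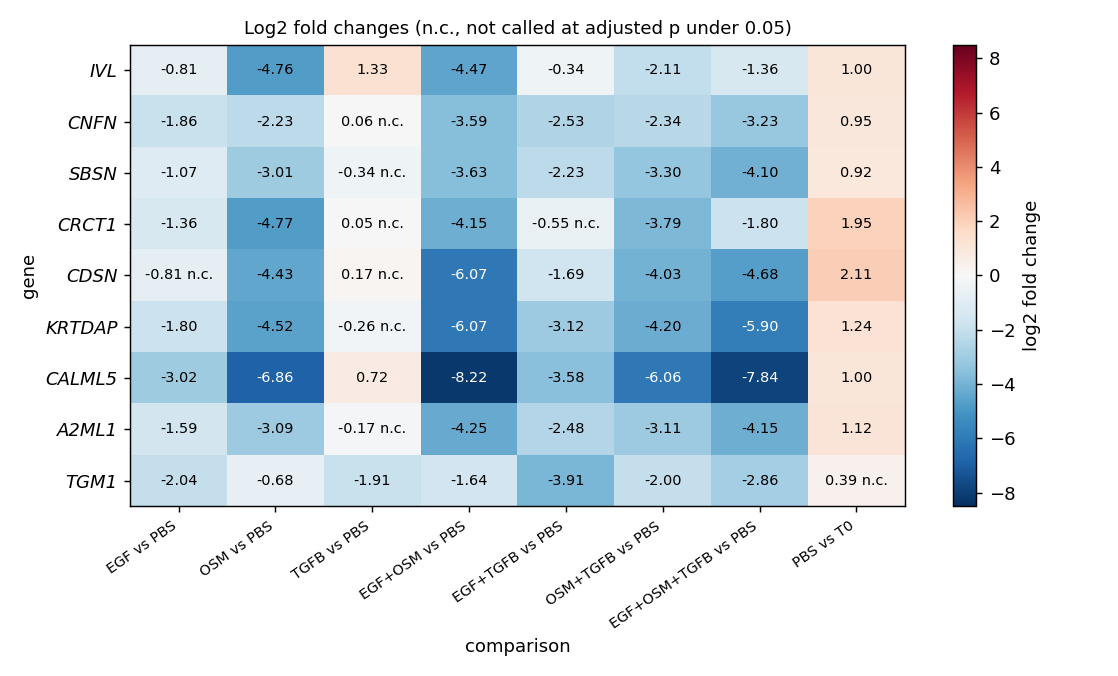
Log2 fold change of each tested gene for the 7 treatments against PBS and for PBS against T0 (colour and printed value, 3 libraries per group). Values marked n.c. were not called. Against PBS, all values lie below 0 except IVL and CALML5 with TGFB, at 1.33 and 0.72, and uncalled values of CDSN, CNFN and CRCT1 with TGFB. For PBS against T0, all values lie above 0, from 0.39 to 2.11.

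The comparisons with PBS share the same 3 control libraries, so values for combinations are given side by side. EGF+OSM lowered all 9 tested members (39.6% of all genes were lower and 37.6% higher), with a median of -4.25 against -0.05 for all genes. CALML5 was at 0.244, 0.186 and 0.0253 CPM, from 9, 8 and 1 counts, and was 298-fold lower (-8.22 ± 0.29; adjusted p = 4.5e-17). CDSN and KRTDAP both fell by 6.07 on the log2 scale. OSM+TGFB lowered all 9 (31.8% of all genes were lower and 34.2% higher), with a median of -3.30, and CALML5 fell by 6.06. The triple combination lowered all 9 (36.7% of all genes were lower and 37.7% higher), with a median of -4.10, and CALML5 fell by 7.84. EGF+TGFB lowered 8 of 9 (37.5% of all genes were lower and 36.2% higher), with a median of -2.48 against -0.04 for all genes. In these 4 combinations and with EGF or OSM alone, 0 members were called higher than PBS by edgeR's quasi-likelihood test, 0 at an unadjusted p under 0.05, and 0 by DESeq2.

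EGF+TGFB gave the lowest level of TGM1 in the study. Its libraries had 10.8, 14.8 and 22.7 CPM, below every library of any other group, and it was 15.1-fold lower than in PBS (-3.91 ± 0.29; adjusted p = 1.9e-10). IVL at 83.5, 100.5 and 81.0 CPM overlapped PBS and was 1.26-fold lower (-0.34 ± 0.14; adjusted p = 0.035). That call was lost without the filter on low counts (adjusted p = 0.11), without PBS replicate 2 (0.091) or 3 (0.17), and without EGF+TGFB replicate 1 (0.11) or 3 (0.16), all as adjusted p. CRCT1 was not called, at -0.55 ± 0.40 (adjusted p = 0.22).

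The effect of TGFB on IVL was tested against each background. Added to OSM, it gave libraries of 27.6, 24.5 and 25.5 CPM, all above those of OSM alone, and IVL was 6.25-fold higher (2.64 ± 0.18; adjusted p = 1.7e-10). Added to EGF+OSM, whose libraries had 6.20, 5.31 and 3.67 CPM, it gave 48.6, 41.5 and 40.2 CPM, again with no overlap. That was 8.62-fold higher (3.11 ± 0.18; adjusted p = 2.8e-12). Added to EGF, it raised IVL 1.38-fold (0.47 ± 0.14; adjusted p = 0.0072), a call lost without EGF replicate 1 (adjusted p = 0.056) or EGF+TGFB replicate 2 (adjusted p = 0.055). With all ligands together, IVL was 2.57-fold below PBS (-1.36 ± 0.14; adjusted p = 2.2e-08).

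TGFB lowered TGM1 on every background: TGM1 fell by 1.91 from PBS, fell by 1.87 from EGF, fell by 1.32 from OSM and fell by 1.22 from EGF+OSM on the log2 scale, all called. Added to OSM, TGFB changed 2 of 9 tested members, IVL upward and TGM1 downward, where 51.6% of all genes were called. In a fit of these groups alone 4 were called. Added to EGF+OSM it changed 3 of 9, where 61.1% of all genes were called: CRCT1 joined IVL in rising and TGM1 fell. CRCT1 had 0.731, 0.535 and 0.278 CPM with EGF+OSM and 2.13, 3.03 and 2.76 CPM in the triple combination, with no overlap. It was 5.09-fold higher (2.35 ± 0.55; adjusted p = 0.00085). Added to EGF, TGFB changed 7 of 9, where 54.6% of all genes were called: IVL rose and 6 members fell, TGM1 by 1.87 and KRTDAP by 1.32 the most. The falls of CNFN and CALML5 there were lost without the filter on low counts (adjusted p = 0.061 and 0.065) and each in 4 of the fits that left out 1 library, among EGF and EGF+TGFB replicates.

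**Figure D2:**
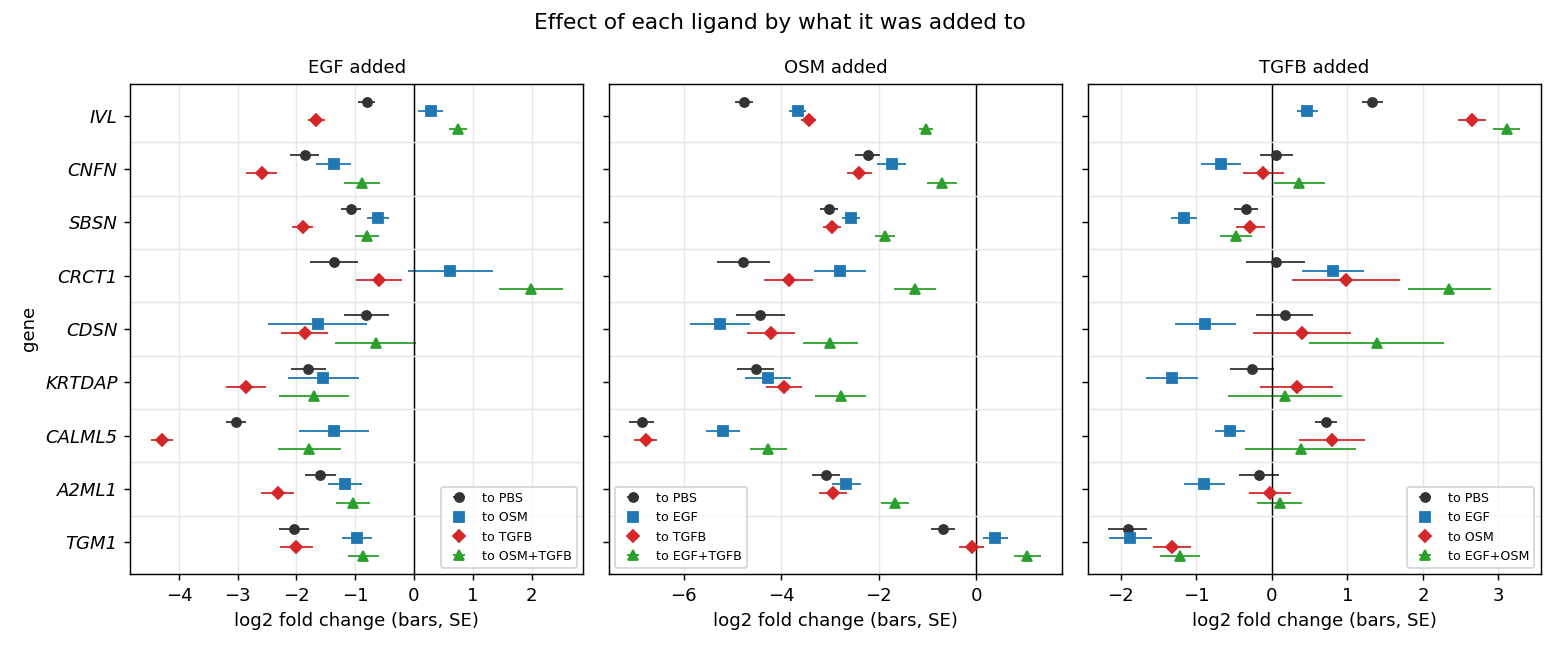
Log2 fold change of each tested gene when EGF, OSM or TGFB was added to PBS or to the other ligands (bars, SE; 3 libraries per group). In the TGFB panel IVL lies to the right of 0 on every background, from 0.47 to 3.11, and TGM1 to the left, from -1.91 to -1.22.

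Adding OSM to EGF lowered 8 of 9 tested members (17.1% of all genes were lower), and TGM1 was not called, at 0.40 ± 0.25 (adjusted p = 0.25). Adding OSM to TGFB lowered 8 of 9 (26.4% of all genes were lower), with log2 fold changes of -6.77 for CALML5 and -3.44 for IVL, and TGM1 again uncalled, at -0.09 ± 0.26. Adding OSM to EGF+TGFB changed 8 of 9, where 26.4% of all genes were called, and TGM1 was the 1 that rose, from 10.8 to 22.7 CPM to 32.5 to 33.5 CPM. That rise was 2.07-fold (1.05 ± 0.28; adjusted p = 0.0087), and it was lost without EGF+TGFB replicate 1 (adjusted p = 0.052). Among the falls, CRCT1 (-1.26, adjusted p = 0.035) lost its call without the filter on low counts (adjusted p = 0.067). The same happened without EGF+TGFB replicate 2 (0.083) or 3 (0.10), and without any 1 library of the triple combination (0.060 to 0.13).

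Adding EGF to TGFB lowered 8 of 9 tested members (35.5% of all genes were lower), with log2 fold changes of -4.29 for CALML5 and -1.66 for IVL, while CRCT1 was not called, at -0.60 ± 0.40. Adding EGF to OSM lowered 5 of 9 (31.8% of all genes were lower), and IVL was not called, at 0.29 ± 0.21 (adjusted p = 0.26). Among these 5, SBSN lost its call without OSM replicate 2 (adjusted p = 0.065) or EGF+OSM replicate 3 (0.055). KRTDAP lost its call without OSM replicate 1 (adjusted p = 0.13), EGF+OSM replicate 1 (0.11) or EGF+OSM replicate 3 (0.061), and without the filter on low counts (0.082). Adding EGF to OSM+TGFB changed 8 of 9, where 52.2% of all genes were called. IVL was 1.68-fold higher (0.75 ± 0.15; adjusted p = 0.00026) and CRCT1 3.97-fold higher (1.99 ± 0.54; adjusted p = 0.0039), and 6 members fell. Of those falls, TGM1 lost its call without OSM+TGFB replicate 3 (adjusted p = 0.061), and CNFN, KRTDAP and CALML5 each lost theirs in fits without 1 library of either group. KRTDAP also lost its call there without the filter on low counts (adjusted p = 0.058).

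A departure from additivity sets the response to a pair, on the log2 scale, against the summed responses to its single ligands, and is 0 when these add. IVL departed in every pair. With EGF+OSM it was 1.09 ± 0.26 above the sum (adjusted p = 0.0017), with OSM+TGFB 1.32 ± 0.23 above (adjusted p = 0.00031), and with EGF+TGFB -0.86 ± 0.20, below the sum (adjusted p = 0.0023). TGM1 departed by 1.08 ± 0.36 with EGF+OSM (adjusted p = 0.022), while its departure with EGF+TGFB was not called, at 0.04 ± 0.37 (adjusted p = 0.96). CALML5 (-1.27 ± 0.25; adjusted p = 0.00046) and SBSN (-0.83 ± 0.24; adjusted p = 0.012) were also below the sum with EGF+TGFB.

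Members called for a departure numbered 2 of 9 with EGF+OSM (38.7% of all genes were called), 3 of 9 with EGF+TGFB (29.8%) and 1 of 9 with OSM+TGFB (23.3%). The 3-way interaction, the part of the triple response not given by single ligands and pairs, was called for 1 of 9, IVL, at 1.32 ± 0.33 (adjusted p = 0.025), with 3.90% of all genes called. The IVL call was lost without the filter on low counts (adjusted p = 0.079), without OSM replicate 2 (0.060) or without EGF+OSM replicate 3 (0.050). It was also lost without replicate 3 of every group (adjusted p = 0.18). The TGM1 departure was lost without PBS replicate 3 (adjusted p = 0.057), EGF replicate 1 (0.055), OSM replicate 1 (0.053) or EGF+OSM replicate 2 (0.068).

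**Figure D3:**
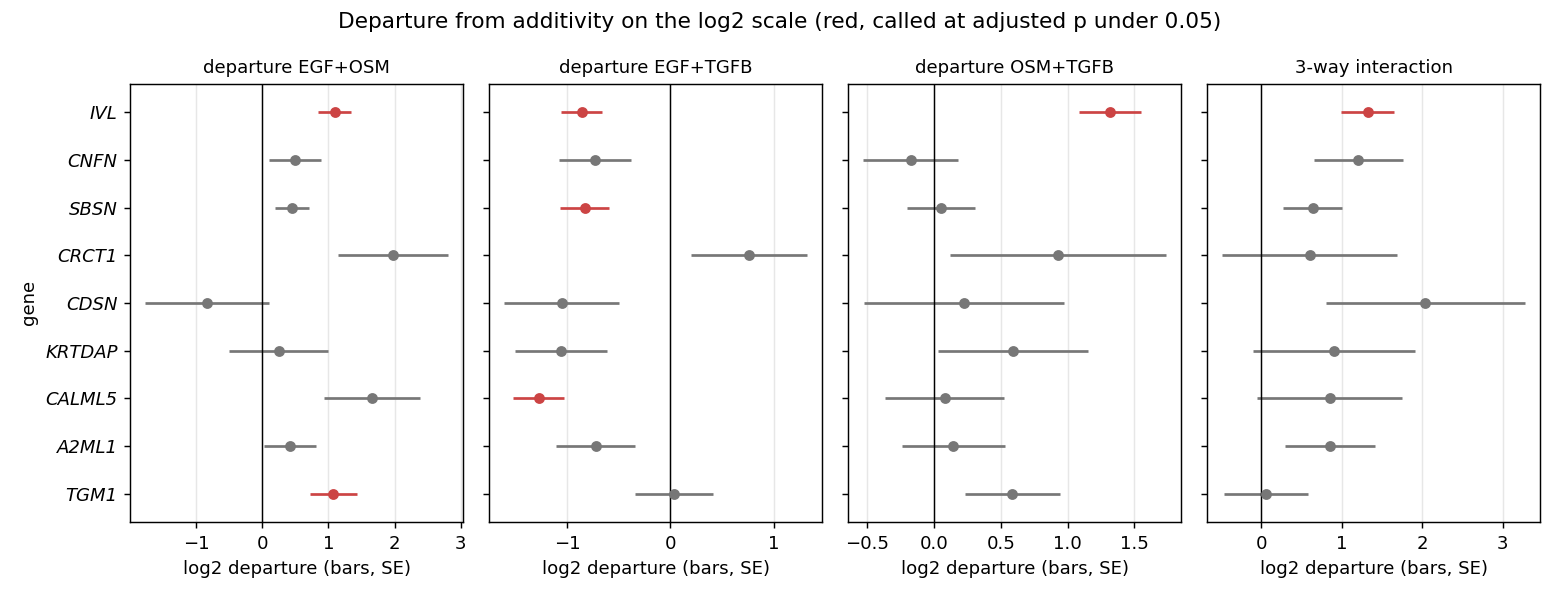
Departure from additivity of each tested gene for the 3 pairs, and the 3-way interaction (log2 scale; bars, SE). IVL lies above 0 for EGF+OSM and OSM+TGFB and below 0 for EGF+TGFB, and CRCT1 and CALML5 have larger values than IVL for EGF+OSM, at 1.98 and 1.66, with wider bars and no call.

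The order of IVL levels over the groups was TGFB (280.3 ± 23.8 CPM), PBS (112 ± 18.4), EGF+TGFB (88.3 ± 10.6), EGF (63.9 ± 11.6), T0 (55.7 ± 5.64), the triple combination (43.5 ± 4.5), OSM+TGFB (25.9 ± 1.54), EGF+OSM (5.06 ± 1.29) and OSM (4.12 ± 0.347). Libraries of neighbours overlapped for PBS and EGF+TGFB, for EGF and T0, and for EGF+OSM and OSM, and the other neighbours were separate. As a description over the 27 libraries, which share groups and depth, the log2 CPM of each gene was correlated with the mean of the other tested members. Pearson's r was 0.975 for KRTDAP, 0.968 for A2ML1, 0.967 for CALML5, 0.964 for SBSN, 0.926 for CNFN and 0.912 for CDSN. It was 0.752 for IVL, 0.731 for CRCT1 and 0.242 for TGM1. IVL and CRCT1 had r = 0.921 with each other, and IVL and TGM1 had r = -0.182.

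Some members tended to be highest in the same replicate number. CDSN, KRTDAP, TGM1 and CRCT1 were each highest in replicate 3 in 6 of 9 groups, and A2ML1 was highest in replicate 2 in 9 of 9. For CRCT1 the PBS libraries had 5.43, 7.38 and 14.7 CPM and the TGFB libraries 5.12, 6.65 and 16.8 CPM. Whether the replicate numbers mark a shared preparation is not given in the labels.

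The 10 genes most like the mean of the tested members over the 27 libraries, by Pearson's r of log2 CPM, were VSIG10L (0.991), MUC21 (0.981), SPRR1A (0.977), PSCA (0.975), SPRR3 (0.974), LIPK (0.974), DSG4 (0.973), P3H2 (0.972), RNF223 (0.971) and AOC1 (0.970). SPRR1A and SPRR3 encode small proline-rich precursors of the envelope, and DSG4 a desmosomal cadherin. SPRR3 averaged 314 CPM in PBS, 97.8 CPM with EGF, 5.09 CPM with OSM and 175 CPM with TGFB.

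Other genes of the same process were read from lists compiled from general knowledge, with earlier results of these data known. Their counts stand beside the shares of all genes: 38.6% lower and 34.9% higher with EGF, 29.8% lower and 33.5% higher with OSM, and 15.8% lower and 19.9% higher with TGFB. Of 31 further cornified envelope genes, 16 were tested: OSM lowered 11 and raised 2, EGF lowered 10 and raised 0, and TGFB lowered 3 and raised 2, the last near the shares of all genes. Their medians were -1.32, -1.30 and -0.35 on the log2 scale. The plakin gene PPL fell by 2.42 with EGF and by 2.07 with OSM. The cystatin gene CST6 rose by 1.68 with TGFB and averaged 8.88 CPM in PBS and 28.5 CPM with TGFB. The more abundant cystatin gene CSTA averaged 558 CPM in PBS and 319 CPM with TGFB, and the libraries did not overlap. In the same 2 groups PPL averaged 804 and 594 CPM, and the envelope gene EVPL 161 and 152 CPM. Of 18 tested genes of barrier lipids, EGF and OSM each lowered 15 and raised 1, and TGFB lowered 8 and raised 2 (15.8% and 19.9% of all genes). The lipid transporter gene ABCA12 fell by 1.56 with EGF, by 1.76 with OSM and by 3.49 in the triple combination. The 18 tested epidermal proteases and their inhibitors were mixed: EGF lowered 9 and raised 4, OSM lowered 11 and raised 6, and TGFB lowered 4 and raised 4, with medians of -0.36, -0.58 and -0.08.

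Among 4 tested transglutaminase genes outside the set, TGM2, which encodes tissue transglutaminase, rose against PBS in all 7 treatments, where TGM1 fell. TGM2 averaged 4.25 ± 0.418 CPM in PBS and 182 ± 28.9 CPM with TGFB (log2 fold change 5.41 ± 0.22; adjusted p = 1.1e-13). TGM5, an epidermal transglutaminase, fell by 2.45 with EGF and by 3.67 with OSM and was not called with TGFB (0.11 ± 0.18). Of 20 tested transcription factors of squamous differentiation, EGF lowered 18 and raised 1 (38.6% and 34.9% of all genes), OSM lowered 14 and raised 2 (29.8% and 33.5%), and TGFB lowered 5 and raised 3 (15.8% and 19.9%). EHF, an ETS-family factor of epithelia, fell by 1.55 with OSM. Of 16 tested basal epithelial genes, OSM raised 12 and lowered 1 (33.5% and 29.8% of all genes), TGFB raised 13 and lowered 1 (19.9% and 15.8%), and EGF raised 10 and lowered 3 (34.9% and 38.6%).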

How the data were processed

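The deposited values were estimated counts per gene, which the authors made with kallisto 0.46.2 after Trim Galore 0.4.3 and cutadapt 1.10, on GRCh38.p5, per the submitters' processing notes; libraries were stranded, per the labels' protocols. The deposited table had 40487 rows of whole numbers; 7165 without a symbol held 0.324% of counts. Rows sharing a symbol were summed. Genes were filtered with filterByExpr by group (15575 kept), scaled by TMM (factors 0.867 to 1.12) and fitted in edgeR 4.0.16 (R 4.3.3) by quasi-likelihood over all 27 libraries (18 residual degrees of freedom). Calls used a Benjamini-Hochberg adjusted p under 0.05 over all tested genes. Fold changes used a prior count of 0.125, and log2 CPM a prior count of 2. The fit was tested on simulated data. DESeq2 1.42.0, other scalings, no filter, a 2-fold limit, a replicate block and leaving out libraries were alternatives. Gene spans are from GENCODE v44 (GRCh38). Apart from PTPRC, named genes outside the set were among the most abundant of each list, with the 10 most alike by r. The members and lists were chosen with earlier results of these data known. In 2 of 36 pairs of groups, deviations of same-numbered libraries from their group means had every r over 0.1. In 19 of 36, every such r was above every r between unlike numbers. The labels name no molecular identifiers, and precision from depth covers counting error only.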

Additional observations from a re-analysis of the deposited data

Results flagged for a closer look

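Departures from additivity mark genes whose response to a ligand differed with the other ligand present. Of 9 tested members, those called for one numbered 2 with EGF+OSM (IVL and TGM1; 38.7% of all genes were called), 3 with EGF+TGFB (IVL, CALML5 and SBSN; 29.8%), 1 with OSM+TGFB (IVL; 23.3%) and 1 for the 3-way interaction (IVL; 3.90%). These shares of the members are near or below those of all genes for EGF+OSM, EGF+TGFB and OSM+TGFB. Each difference was tested as an interaction term in edgeR's quasi-likelihood fit over all 27 libraries.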

How the results depend on the processing

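The 150 results followed for single genes were all those against PBS and for PBS against T0, all called ones, and all of IVL and TGM1. Of these, 114 kept their direction and call in every alternative run, and 125 did so apart from the 2-fold limit. Other uncalled results, which could gain a call, were not among them. Of the called results, 0 reversed. With a 2-fold limit, the members called numbered 5 in place of 8 (PBS against T0), 3 in place of 5 (EGF added to OSM), 3 in place of 7 (TGFB added to EGF), 4 in place of 8 (EGF added to OSM+TGFB) and 1 in place of 3 (EGF+TGFB departure). DESeq2 called 5 in place of 3 when TGFB was added to EGF+OSM and 4 in place of 2 for the EGF+OSM departure. With only the groups compared, 4 in place of 2 were called when TGFB was added to OSM. The replicate block gave 5 in place of 3 for the EGF+TGFB departure, and over all genes 1247 in place of 607 calls for the 3-way interaction. Over all genes it called more in every comparison, for example 6258 in place of 5470 for PBS against T0. Same-numbered libraries had a median r of 0.057. In 19 of 36 pairs of groups, every same-numbered r was above every r between unlike numbers. These values do not settle whether the numbers pair the samples, and the main fit has no term for them. Without the filter on low counts, 0 members in place of 1 were called for the 3-way interaction (edgeR; 2 at an unadjusted p under 0.05, and 1 called by DESeq2). An alternative chosen after seeing the data left out replicate 3 of every group: it called 5 in place of 3 with TGFB, with TGFB added to EGF+OSM and for the EGF+TGFB departure. That run lost the calls of TGM1 with OSM (adjusted p = 0.057) and of IVL with EGF+TGFB (0.46) and for the 3-way interaction (0.18). With EGF added to OSM+TGFB it lost those of CNFN (adjusted p = 0.13) and TGM1 (0.080).

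Leaving out 1 library at a time gave 7 to 9 members with EGF, 8 to 9 with OSM, 3 to 5 with TGFB, 7 to 8 with EGF+TGFB, 3 to 6 with EGF added to OSM, 5 to 8 with TGFB added to EGF, 3 to 4 with TGFB added to EGF+OSM, 7 to 8 with OSM added to EGF+TGFB, 6 to 8 with EGF added to OSM+TGFB, 1 to 3 and 3 to 4 for the EGF+OSM and EGF+TGFB departures, and 0 to 1 for the 3-way interaction. Uncalled values were followed over those fits only against PBS, for PBS against T0, and elsewhere for IVL and TGM1. Of these, CDSN (-0.19 to 0.45), CNFN (-0.18 to 0.26) and CRCT1 (-0.64 to 0.57) with TGFB changed sign. TGM1 did so with OSM added to TGFB (-0.31 to 0.17), in the EGF+TGFB departure (-0.20 to 0.29) and in the 3-way interaction (-0.19 to 0.30). Sign changes of other uncalled values were not examined. Without replicate 3 of every group, CNFN and CRCT1 with TGFB were -0.0067 and -0.15 and the TGM1 departure with EGF+TGFB -0.036; with only the groups compared that departure was -0.023. The cause of these changes was not tested. Depth limits CALML5, KRTDAP and CDSN in groups with OSM, where some libraries had under 10 counts, and TGM3 throughout.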
